A study of Mus musculus with 9 samples.

Results

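Expression of 10 genes of the circadian clock, Dbp, Tef, Hlf, Per1, Per2, Per3, Nr1d1, Nr1d2, Arntl and Ciart, was examined in mouse heart after oxaliplatin, a platinum drug used against cancer. They were taken by symbol from the table of normalized gene counts. All 10 members had a row among its 13795 symbols, and all 10 passed the filter on low values (a mean of 10 or more across the 9 samples). RNA was sequenced from heart tissue of C57BL/6 mice in 5 samples given oxaliplatin at 10 mg/kg and 4 samples given vehicle, after 8 weeks of treatment, in a study of energy metabolism there. RNA of integrity over 8 was used. The labels do not say whether each sample is a separate animal, so p-values speak only of the spread among the samples, part of which may be technical. No source used here gives the time of day of collection, so an effect of the drug and a difference in collection time cannot be told apart for these genes.

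The clock is a feedback loop of transcription factors that runs in most cells, cardiomyocytes included. The proteins of Arntl (also called Bmal1) and Clock bind E-boxes and switch on the Per genes, Nr1d1, Nr1d2, Ciart and Dbp, whose products then close the loop: the PER proteins and CIART repress ARNTL and CLOCK, and the nuclear receptors NR1D1 and NR1D2 (REV-ERB alpha and beta) bind ROREs and repress Arntl. DBP, TEF and HLF, the related bZIP factors of the PAR family, carry the rhythm to other genes through D-boxes. Arntl peaks at about the opposite time of day to Dbp and Nr1d1.

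In oxaliplatin hearts Dbp, Tef and Nr1d2 fell, and no member rose. Dbp averaged 554 ± 189 normalized counts in oxaliplatin samples and 1018 ± 159 in vehicle samples (SD, n = 5 and n = 4). Of the 10 members 3 passed as lower, 0 passed as higher and 7 did not pass, at an adjusted p under 0.05 in limma over all 13788 genes tested. Among all these genes 5.03% passed as lower and 9.23% as higher, or 14.3% in either direction. At an unadjusted p under 0.05 the members numbered 5 lower and 0 higher, against 12.8% lower, 16.0% higher and 28.8% in either direction among all genes. The log2 fold change was negative for 8 members and positive for Per2 and Arntl, and its median was -0.44 over the members and -0.02 over all genes tested. The count of members passed as lower depended on single samples, being 5 without oxaliplatin 2, 2 without oxaliplatin 3 and 1 in each of the fits without oxaliplatin 4, oxaliplatin 5, vehicle 1, vehicle 2, vehicle 3 or vehicle 4, where Dbp was the gene that passed.

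**Figure D1:**
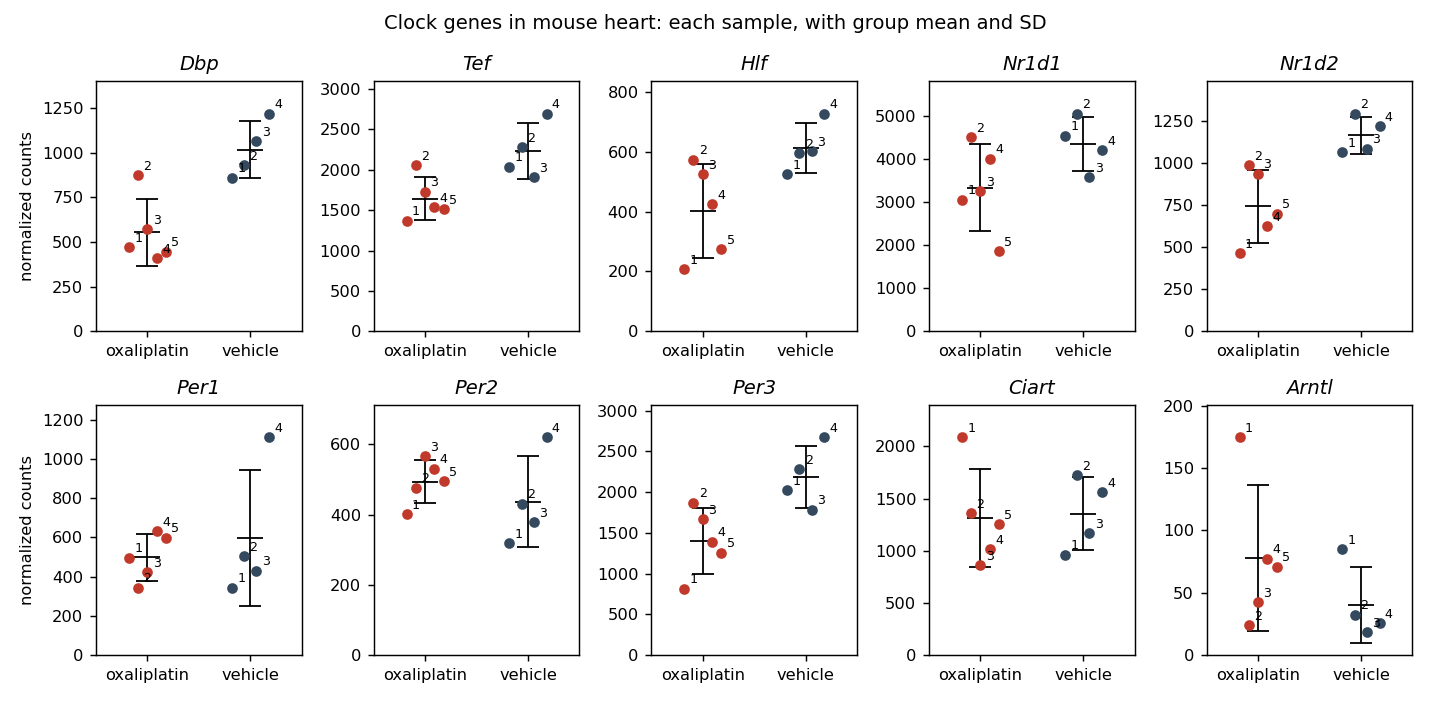
Normalized counts (y axis, starting at 0) of the 10 clock genes in each oxaliplatin sample (red, left) and vehicle sample (dark, right), numbered by replicate, with the group mean and SD as bars. For Nr1d2 the highest oxaliplatin sample (990 normalized counts) lay under the lowest vehicle sample (1066), and for each other gene the groups overlapped.

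Each sample summed to between 29.4 M and 36.9 M normalized counts in the table, and the spacing of low values put 28.5 M to 36.2 M estimated reads behind it. Cardiac identity was clear, with 919541 to 1217310 normalized counts in oxaliplatin samples and 1120140 to 1422030 in vehicle samples summed over 7 cardiomyocyte markers. All 7 had negative log2 fold changes (median -0.32), 2 passed as lower and 3 were lower at an unadjusted p under 0.05. Atrial markers differed widely within both groups, from 27370 to 848680 normalized counts in oxaliplatin samples and from 12258 to 389861 in vehicle samples summed over 6 markers (0 of 6 passed, nor had any an unadjusted p under 0.05), with Bmp10 at 0 in oxaliplatin 1, vehicle 2 and vehicle 4. The 3 samples with the highest atrial score were oxaliplatin 2, oxaliplatin 4 and vehicle 1. Erythroid markers summed to 7842 to 358239 normalized counts in oxaliplatin samples and 221401 to 570586 in vehicle samples (8 markers, all with negative log2 fold changes, 0 passed, 6 at an unadjusted p under 0.05). All 6 endothelial markers had positive log2 fold changes (median 0.37), of which 4 had an unadjusted p under 0.05 and 1 passed, Pecam1 at 1.33 with groups that did not overlap. Of 6 fibroblast markers 0 passed (0 at an unadjusted p under 0.05), and of 5 measured immune markers 1 passed as higher and 1 as lower. These counts stand beside 5.03% passed as lower and 9.23% as higher among all genes tested. At an unadjusted p under 0.05 the shares were 12.8% lower and 16.0% higher. The part of these marker differences in the results on the clock genes was not tested, beyond the fits with the atrial or erythroid score as a covariate. The erythroid score was 0.68 to 1.76 in vehicle samples. In oxaliplatin samples it was -3.12 to -1.03, except in oxaliplatin 3 (2.04). The fit with that score can thus hardly separate it from treatment. A call lost there need not mean a smaller fold change (Tef -0.47, standard error 0.19, against -0.44 and 0.14 in the main fit). In such bulk tissue fewer cells of a type and less RNA per cell cannot be told apart.

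The windows around the start sites were searched for the letters of E-boxes, D-boxes and ROREs, and 6 are shown because their genes either passed the test (Dbp, Tef and Nr1d2) or stand for a class of site (Per3, Ciart and Arntl). RefSeq start sites on GRCm38.p6 were matched for 9 of the 10 members, with 12 windows of 250 bases before and 50 after the start, and Per2 had no entry. Each window is written 5′ to 3′ on the strand of the gene, with matches on either strand in capitals. The letters searched were the E-box CACGTG and its variant CACGTT, the D-box TTATGTAA and its variant TTACGTAA, the RORE core AGGTCA and the longer RORE TAGGTCA, which contains the core.
Dbp, chr7:45704997-45705296, plus strand, no match: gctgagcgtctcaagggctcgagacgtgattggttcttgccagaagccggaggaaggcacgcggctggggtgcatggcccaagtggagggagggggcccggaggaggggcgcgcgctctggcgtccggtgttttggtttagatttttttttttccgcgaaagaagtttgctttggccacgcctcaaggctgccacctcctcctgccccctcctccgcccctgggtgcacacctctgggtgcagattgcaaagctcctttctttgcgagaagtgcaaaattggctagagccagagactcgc
Tef, chr15:81802423-81802722, plus strand, with an E-box: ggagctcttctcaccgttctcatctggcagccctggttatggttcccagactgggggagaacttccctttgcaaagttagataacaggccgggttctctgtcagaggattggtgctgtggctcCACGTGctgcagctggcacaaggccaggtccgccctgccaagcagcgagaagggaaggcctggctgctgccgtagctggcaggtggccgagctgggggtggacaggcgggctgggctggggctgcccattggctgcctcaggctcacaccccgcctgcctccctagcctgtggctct
Nr1d2, chr14:18239057-18239356, minus strand, with a RORE core: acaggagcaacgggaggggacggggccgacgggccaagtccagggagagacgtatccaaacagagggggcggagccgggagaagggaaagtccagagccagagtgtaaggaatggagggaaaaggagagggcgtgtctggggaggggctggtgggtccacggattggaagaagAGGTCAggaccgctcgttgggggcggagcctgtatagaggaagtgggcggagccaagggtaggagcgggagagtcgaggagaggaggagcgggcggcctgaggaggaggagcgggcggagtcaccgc
Per3, chr4:151044616-151044915, minus strand, with 2 D-boxes: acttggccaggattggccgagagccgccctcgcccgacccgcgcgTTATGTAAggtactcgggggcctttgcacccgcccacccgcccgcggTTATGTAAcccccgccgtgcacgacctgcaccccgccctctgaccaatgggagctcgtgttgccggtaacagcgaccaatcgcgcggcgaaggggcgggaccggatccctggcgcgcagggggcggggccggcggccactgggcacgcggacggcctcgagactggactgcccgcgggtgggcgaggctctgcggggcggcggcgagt
Ciart, chr3:95882179-95882478, minus strand, with 3 E-boxes: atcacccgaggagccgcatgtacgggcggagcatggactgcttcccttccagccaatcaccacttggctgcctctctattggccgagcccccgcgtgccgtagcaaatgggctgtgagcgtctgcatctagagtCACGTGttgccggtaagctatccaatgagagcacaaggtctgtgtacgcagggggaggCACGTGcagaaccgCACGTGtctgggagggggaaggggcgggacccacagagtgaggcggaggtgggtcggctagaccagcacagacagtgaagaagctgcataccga
Arntl, chr7:113207261-113207560, plus strand, with a RORE: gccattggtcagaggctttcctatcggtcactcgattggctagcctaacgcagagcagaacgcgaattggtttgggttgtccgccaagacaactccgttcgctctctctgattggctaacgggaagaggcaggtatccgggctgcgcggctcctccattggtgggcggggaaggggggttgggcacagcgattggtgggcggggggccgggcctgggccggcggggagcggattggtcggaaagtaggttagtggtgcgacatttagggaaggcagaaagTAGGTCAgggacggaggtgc

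Among all 32851 promoter windows of this length, 7.15% held CACGTG, 4.68% CACGTT, 0.938% TTATGTAA, 0.119% TTACGTAA, 16.3% AGGTCA and 2.61% TAGGTCA. The E-box was in 4 of the 12 member windows (both Tef windows, Per1 and Ciart), its variant in 1 (Nr1d1), the D-box in 1 (Per3), the D-box variant in 0, the RORE core in 3 (Per1, Nr1d2 and Arntl) and the longer RORE in 1 (Arntl). These are matches of letters, and a window without a match says only that these letters are not in it.

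The PAR bZIP factors were the group of members with the largest fall, in Dbp. Dbp, which encodes the albumin D-box binding protein, had 470, 875, 572, 408 and 446 normalized counts in oxaliplatin samples 1 to 5, against 860, 930, 1063 and 1219 in vehicle samples 1 to 4. Its 4 lowest values were the oxaliplatin samples 1, 3, 4 and 5, and oxaliplatin 2 lay just above vehicle 1. Dbp fell by 0.92 on the log2 scale (standard error 0.20, 95% interval -1.36 to -0.49, limma adjusted p = 0.010). It passed in each of the 9 fits that left out a single sample, with log2 fold changes of -1.10 to -0.82 (limma adjusted p from 2.59e-04 to 0.0381). The last 737 bases of Dbp overlap Sphk2, a sphingosine kinase gene on the other strand, in GENCODE M21 on GRCm38. No source used here gives the strand setting of the counting, so a read of the shared stretch may belong to either gene. Sphk2, named after its values were seen, averaged 575 ± 80.8 normalized counts in oxaliplatin samples and 683 ± 64.9 in vehicle samples, with a log2 fold change of -0.26 that did not pass (limma adjusted p = 0.202).

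Tef, the thyrotroph embryonic factor, had 1371, 2060, 1729, 1538 and 1514 normalized counts in oxaliplatin samples 1 to 5, against 2039, 2281, 1905 and 2696 in vehicle samples. All oxaliplatin samples except oxaliplatin 2 lay under the lowest vehicle sample. It fell by 0.44 on the log2 scale (standard error 0.14, limma adjusted p = 0.0496). That call lay at the threshold and was lost in limma without oxaliplatin 1 (adjusted p = 0.0764), oxaliplatin 3 (0.0743), oxaliplatin 4 (0.103), oxaliplatin 5 (0.101), vehicle 1 (0.0708), vehicle 2 (0.117), vehicle 3 (0.0571) or vehicle 4 (0.121). It was also lost with quantile normalization (0.0669), with nuclear totals set equal (0.225), without trend and robust moderation (0.0896) and with the erythroid score as a covariate (0.170). An antisense gene without a row shares 193 bases with Tef in GENCODE M21, with the same uncertainty of strand as for Dbp.

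Hlf, the hepatic leukemia factor and the remaining PAR bZIP gene, had 208, 574, 525, 424 and 274 normalized counts in oxaliplatin samples 1 to 5, against 526, 595, 603 and 728 in vehicle samples. The low values of oxaliplatin 1 and oxaliplatin 5 set the oxaliplatin mean, and oxaliplatin 2 lay above vehicle 1. The log2 fold change of -0.70 (standard error 0.27, 95% interval -1.30 to -0.10) did not pass (limma adjusted p = 0.111), and it did without oxaliplatin 2 (-0.86, adjusted p = 0.0372), with the atrial score as a covariate (-0.82, adjusted p = 0.0149) and without the 3 samples rich in atrial markers (-1.04, adjusted p = 0.0396). The 3 PAR bZIP genes thus ranked the samples alike at the ends: vehicle 4 was the highest of the 9 samples for all 3, and oxaliplatin 1, 3, 4 and 5 took the 4 lowest places for all 3.

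Of the REV-ERB receptors, Nr1d2 passed and Nr1d1 did not. Nr1d2 had 464, 990, 938, 626 and 700.3 normalized counts in oxaliplatin samples 1 to 5, against 1066, 1296, 1087 and 1221 in vehicle samples. It was the single member whose groups did not overlap, in a background where 5.93% of all genes tested had every oxaliplatin sample under every vehicle sample. Nr1d2 fell by 0.70 on the log2 scale (standard error 0.19, 95% interval -1.12 to -0.28, limma adjusted p = 0.0311). In limma it did not pass without oxaliplatin 4 (adjusted p = 0.0744), oxaliplatin 5 (0.0621), vehicle 1 (0.0506), vehicle 2 (0.0911), vehicle 3 (0.0677) or vehicle 4 (0.0792), with log2 fold changes that stayed between -0.82 and -0.54 over the 9 such fits. Nor did it pass with nuclear totals set equal (0.123), without trend and robust moderation (0.0652) or with the erythroid score as a covariate (-0.57, adjusted p = 0.225).

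Nr1d1 had 3061, 4513, 3255, 4012 and 1859 normalized counts in oxaliplatin samples 1 to 5, against 4553, 5064, 3581 and 4217 in vehicle samples. Oxaliplatin 5 was the lowest, while oxaliplatin 2 and oxaliplatin 4 lay within the vehicle range. The log2 fold change was -0.43 (standard error 0.22, 95% interval -0.91 to 0.05, limma adjusted p = 0.220). It was -0.24 without oxaliplatin 5 (adjusted p = 0.360) and -0.68 without the 3 samples rich in atrial markers (adjusted p = 0.0592), and whether it differs from that of Nr1d2 was not tested. In GENCODE M21 on GRCm38 the last 1075 bases of Nr1d1 (chromosome 11, 98767932 to 98775333, minus strand) overlap the end of Thra, a thyroid hormone receptor gene on the other strand. As for Dbp, a read of the shared stretch may belong to either gene. Thra itself averaged 454 ± 24.9 normalized counts in oxaliplatin samples and 624 ± 157 in vehicle samples, and its log2 fold change of -0.43 did not pass (limma adjusted p = 0.0829). It was -0.57 without vehicle 3 (adjusted p = 0.0289) and -0.28 without vehicle 4 (adjusted p = 0.189).

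Of the Period genes, whose products repress ARNTL and CLOCK, none passed, with Per3 nearest to the threshold. Per3 had 811, 1871, 1669, 1389 and 1258 normalized counts in oxaliplatin samples 1 to 5, against 2023, 2282, 1787 and 2673 in vehicle samples. As for Tef, all oxaliplatin samples except oxaliplatin 2 lay under the lowest vehicle sample. The log2 fold change of -0.69 (standard error 0.22, 95% interval -1.16 to -0.22) lay just outside the threshold (limma adjusted p = 0.0533). It passed without oxaliplatin 1 (-0.50, adjusted p = 0.0419), without oxaliplatin 2 (-0.80, 0.0162), with the atrial score as a covariate (-0.78, 0.00588), without the 3 samples rich in atrial markers (-0.89, 0.0373) and with array weights (-0.55, 0.0238). Per3 lies within the span of Camta1 on the same strand in GENCODE M21, so reads of that gene could be counted with it.

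Per1, which also answers acutely to glucocorticoids, had 497, 343, 423, 632 and 598 normalized counts in oxaliplatin samples 1 to 5, against 344, 504, 429 and 1111 in vehicle samples. Vehicle 4 had the highest value by far, and the other 8 samples were interleaved. Its log2 fold change of -0.14 (standard error 0.32, 95% interval -0.84 to 0.56, limma adjusted p = 0.809) was 0.21 without vehicle 4. Per2 had 401, 476, 566, 531 and 495 normalized counts in oxaliplatin samples 1 to 5, against 318, 431, 379 and 620.2 in vehicle samples. The oxaliplatin samples lay within the vehicle range, and the log2 fold change was 0.21 (standard error 0.18, 95% interval -0.17 to 0.60, limma adjusted p = 0.466). It was 0.0739 without vehicle 1, 0.39 without vehicle 4 and 0.0503 without the 3 samples rich in atrial markers.

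Ciart, a repressor of ARNTL and CLOCK that is also called Chrono, had 2086, 1357, 858, 1014 and 1251 normalized counts in oxaliplatin samples 1 to 5, against 961, 1722, 1167 and 1559 in vehicle samples. The oxaliplatin samples held both the highest and the lowest value of the 9, and the log2 fold change was -0.07 (standard error 0.25, 95% interval -0.62 to 0.48, limma adjusted p = 0.879). In oxaliplatin 1 Ciart was the highest of all samples while Tef, Hlf, Per3 and Nr1d2 were the lowest. Ciart is the member with 3 E-boxes in the window shown above. An antisense gene, C920021L13Rik, spans Ciart in GENCODE M21 (3749 shared bases), with the same uncertainty of strand. That antisense gene has a row of its own, whose values are not given here.

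Arntl, the activator of the loop, had a log2 fold change opposite in sign to that of 8 of the other members. Its values were 174, 23.8, 42.0, 77.2 and 70.8 normalized counts in oxaliplatin samples 1 to 5, against 84.9, 32.4, 18.3 and 25.2 in vehicle samples. The oxaliplatin samples 1, 4 and 5 and vehicle 1 were high, and oxaliplatin 2 and vehicle 2, 3 and 4 were low, so that the groups overlapped. The log2 fold change of 0.88 had a wide interval, -0.34 to 2.10, and did not pass (standard error 0.56, limma adjusted p = 0.329). Without the 3 samples rich in atrial markers, which include vehicle 1 and oxaliplatin 2, it was 1.67 and passed (adjusted p = 0.0399), and without vehicle 1 alone it was 1.31 and did not (adjusted p = 0.134). It was 0.51 without oxaliplatin 1 (adjusted p = 0.512) and 0.59 without vehicle 3 (adjusted p = 0.601). Arntl was also the least abundant member, with 17 estimated reads in vehicle 3 and 146 in oxaliplatin 1, so counting error weighs more on it than on the others. In GENCODE M21 an antisense gene without a row shares 2394 bases with Arntl, with the same uncertainty of strand.

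**Figure D2:**
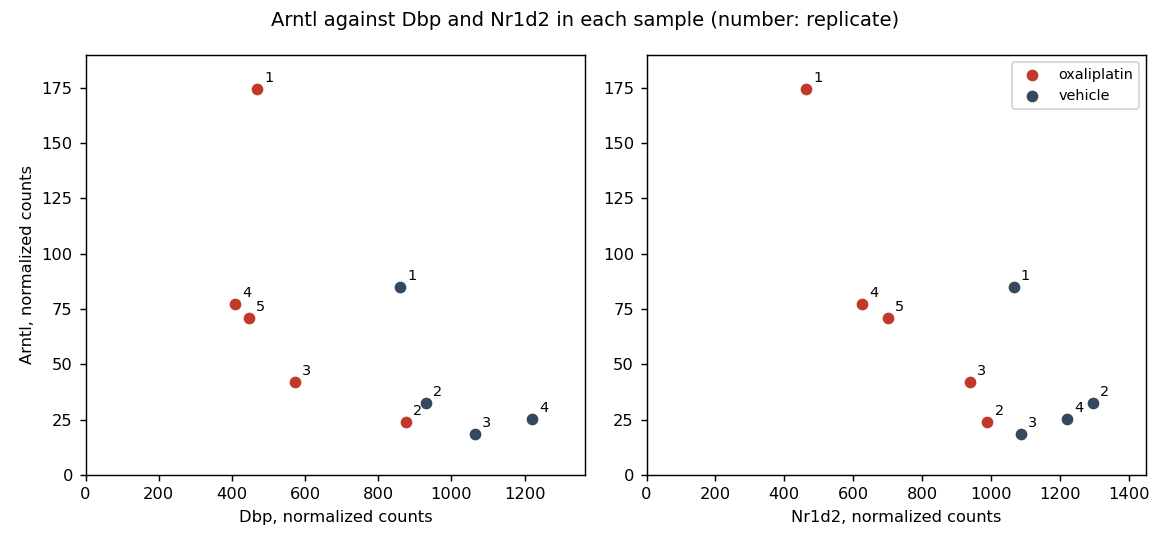
Normalized counts of Arntl (y axis) against those of Dbp (left) and of Nr1d2 (right) in each sample, with oxaliplatin samples in red, vehicle samples dark, and the replicate number beside each point. In the 5 oxaliplatin samples Arntl was higher the lower Nr1d2 was, from sample 1 (174 and 464) to sample 2 (23.8 and 990), and vehicle 1 stood above the other vehicle samples in Arntl (84.9).

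Within the oxaliplatin group the samples fell in opposite orders for Arntl and Nr1d2. From highest to lowest Arntl the order was 1, 4, 5, 3 and 2, and from lowest to highest Nr1d2 it was the same. For Dbp the order from lowest to highest was 4, 5, 1, 3 and 2, so that samples 3 and 2 again came last. For Nr1d1 it was 5, 1, 3, 4 and 2, which does not mirror Arntl. Nor did the vehicle samples, where Arntl from highest to lowest ran 1, 2, 4 and 3 and Nr1d2 from lowest to highest ran 1, 3, 4 and 2. The pair Arntl and Nr1d2 was singled out after its values were seen. Oxaliplatin 2 had 8 of the 10 members within the range of the vehicle samples, against 5 for oxaliplatin 4, 4 for oxaliplatin 5, 3 for oxaliplatin 3 and 2 for oxaliplatin 1. Oxaliplatin 1 had 6 members below that range and 2, Arntl and Ciart, above it. No correlation is given, since the groups hold 5 and 4 samples.

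The log2 ratio of Arntl to Nr1d1, which sets the activator against a repressor in the same sample, was -4.13, -7.51, -6.24, -5.68 and -4.69 in oxaliplatin samples 1 to 5, against -5.73, -7.24, -7.54 and -7.33 in vehicle samples. It averaged -5.65 ± 1.33 in oxaliplatin samples and -6.96 ± 0.83 in vehicle samples (SD, n = 5 and n = 4). Oxaliplatin 1, 4 and 5 lay above every vehicle sample, oxaliplatin 3 lay above all but vehicle 1, and oxaliplatin 2 lay within the vehicle range. Members were chosen with results known, so the ratio is a description with no test.

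**Figure D3:**
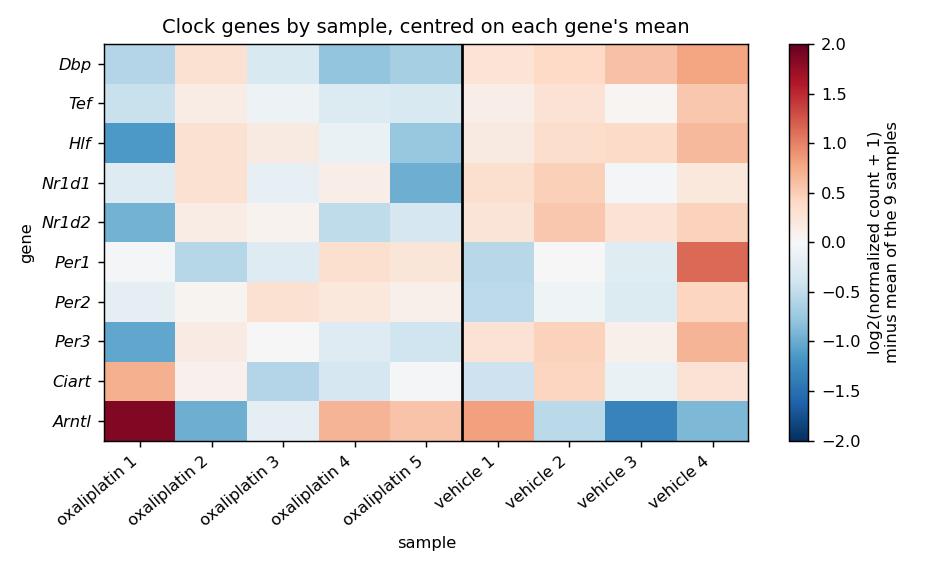
Each gene's log2(normalized count + 1) minus its mean over the 9 samples (colour, red above and blue below the mean), with oxaliplatin samples left of the line and vehicle samples right of it. Arntl in oxaliplatin 1 is the strongest red, in the column where Hlf, Per3 and Nr1d2 are bluest, and vehicle 4 is the highest sample for Dbp, Tef, Hlf, Per1, Per2 and Per3.

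Levels were compared between genes per kilobase of exon in GENCODE M21, an annotation that may not be the authors'. In vehicle samples the order from high to low was Nr1d1 (1415 ± 202 normalized counts per kilobase), Ciart (598 ± 155), Dbp (340.1 ± 53.0), Tef (283 ± 44.1), Per3 (228 ± 39.5), Nr1d2 (216 ± 20.3), Per1 (106 ± 62.0), Hlf (91.8 ± 12.6), Per2 (74.6 ± 22.3) and Arntl (5.34 ± 4.03). Neighbours in this order overlapped in range over the 4 samples, except Nr1d1 and Ciart, Ciart and Dbp, and Per2 and Arntl. These ranges pool the samples of the group, and the order of genes within each sample was not compared. In oxaliplatin samples Tef (209 ± 33.8 normalized counts per kilobase) averaged above Dbp (185 ± 63.2), and Per2 (84.3 ± 10.6) above Hlf (60.04 ± 23.6), with overlapping ranges in each case. Nr1d1 (1085 ± 329), Ciart (581 ± 209.8) and Arntl (10.3 ± 7.75) kept their places. The ratio of the highest to the lowest of the 9 samples was 9.54 for Arntl, 3.5 for Hlf and 3.3 for Per3, and the smallest was 1.95 for Per2.

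The genes whose profile over the 9 samples was most like that of Dbp were Sh3bgr, Pdp2 and Dnaaf3, with root mean square differences of 0.1504, 0.159 and 0.159 between centred log2 values, among 10678 genes with a mean of at least 100. Sh3bgr had 2384, 3931, 2685, 2285 and 2703 normalized counts in oxaliplatin samples 1 to 5, against 4458, 4541, 5648 and 5157 in vehicle samples. The closest member to Dbp was Nr1d2, at 0.278 and place 74, ahead of Tef (0.315, place 181) and Per3 (0.319, place 205). The profile most like that of Arntl belonged to Gm37531 (0.343), a predicted gene, with 466, 77.5, 119, 183 and 208 normalized counts in oxaliplatin samples 1 to 5, against 143, 90.5, 66.7 and 107 in vehicle samples. The next were 9630028I04Rik (0.450) and Cnksr1 (0.480), while Dbp stood at 1.45 from Arntl. Like Arntl, each of these 3 genes was highest in oxaliplatin 1 and lowest in vehicle 3 or oxaliplatin 2.

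Among other genes of the loop a single call was made. Of 17 listed, 15 had a row, of which 1 passed as higher, 0 passed as lower and 14 did not pass (2 higher and 2 lower at an unadjusted p under 0.05). Of all genes tested 9.23% passed as higher and 5.03% as lower. The shares at an unadjusted p under 0.05 were 16.0% higher and 12.8% lower. The gene that rose was Csnk1d, casein kinase 1 delta, which phosphorylates PER proteins. It averaged 1444 ± 142 normalized counts in oxaliplatin samples and 1084 ± 94.1 in vehicle samples (log2 fold change 0.41 with standard error 0.11, limma adjusted p = 0.0251). It did not pass without oxaliplatin 4 (adjusted p = 0.0609), oxaliplatin 5 (0.0630), vehicle 1 (0.0676), vehicle 2 (0.0697) or vehicle 3 (0.0842), nor with the erythroid score as a covariate (0.0925) or without the 3 samples rich in atrial markers (0.0592). Bhlhe40 and Bhlhe41, related repressors that compete for E-boxes, had log2 fold changes of opposite sign, 0.51 and -0.41 (limma adjusted p = 0.0696 and 0.0735). Both passed without oxaliplatin 2 (0.0475 and 0.0120), and Bhlhe40 also without oxaliplatin 3 (0.0479), after quantile normalization (0.0371) and with nuclear totals set equal (0.0191). Given the atrial score, both passed (0.0273 and 0.0273), and Bhlhe41 also passed with array weights (0.0132) and without the 3 samples rich in atrial markers (0.0412).

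Cry2, a repressor that acts with the PER proteins, averaged 1132 ± 74.9 normalized counts in oxaliplatin samples and 1186 ± 115 in vehicle samples. Its log2 fold change was -0.06 (95% interval -0.29 to 0.16, limma adjusted p = 0.729). Clock, the partner of ARNTL, was named for its role after its values were seen. It averaged 377 ± 43.1 normalized counts in oxaliplatin samples and 342 ± 72.9 in vehicle samples (log2 fold change 0.16, 95% interval -0.19 to 0.50, limma adjusted p = 0.550).

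**Figure D4:**
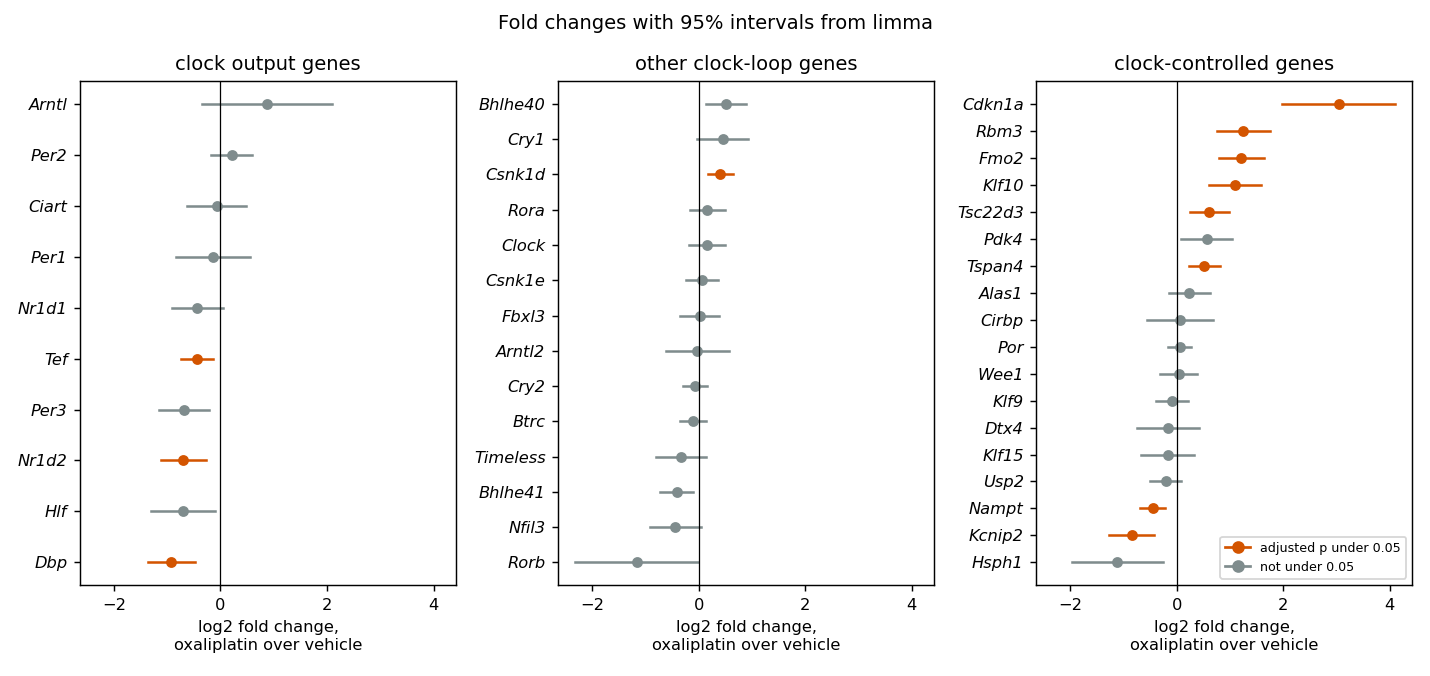
Log2 fold change of oxaliplatin over vehicle (x axis, points) with its 95% interval (lines) for the 10 clock output genes, 14 of the other genes of the loop and 18 clock-controlled genes. Genes with an adjusted p under 0.05 in limma are orange: Dbp, Nr1d2 and Tef at left, Csnk1d in the middle, and 8 genes at right, of which 6 lie above 0.

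Of 20 genes known to follow the clock in mouse tissues, 18 had a row, of which 6 rose, 2 fell and 10 did not pass. Their median log2 fold change was 0.06. Of all genes tested 9.23% passed as higher and 5.03% as lower. At an unadjusted p under 0.05 the list had 7 higher and 3 lower, against 16.0% and 12.8% of all genes. The list was chosen with earlier results of these data known, so these counts are no test of it. Fmo2, a flavin monooxygenase, averaged 1792 ± 549 normalized counts in oxaliplatin samples and 756 ± 134 in vehicle samples (log2 fold change 1.21 with standard error 0.20, limma adjusted p = 0.00249). Cdkn1a, the cell cycle inhibitor p21 and also a p53 target, rose by 3.04, the cold-inducible RNA-binding protein gene Rbm3 by 1.25 and the Kruppel-like factor gene Klf10 by 1.09 (limma adjusted p = 0.00480, 0.00501 and 0.00886). For all 4 every oxaliplatin sample lay above every vehicle sample, where 8.99% of all genes tested did so. Klf10 lost its call once the erythroid score was a covariate (adjusted p = 0.0833).

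The remaining calls in that list were named after their values were seen. Tsc22d3, the glucocorticoid-induced leucine zipper gene, rose by 0.61 and Tspan4, a tetraspanin gene, by 0.52 (limma adjusted p = 0.0287 and 0.0226). Tsc22d3 did not pass without oxaliplatin 3 (0.0643), oxaliplatin 4 (0.0670), oxaliplatin 5 (0.0583), vehicle 1 (0.0928) or vehicle 3 (0.0860), nor without trend and robust moderation (0.0595) or the 3 samples rich in atrial markers (0.0515), and Tspan4 did not without oxaliplatin 4 (0.0560), vehicle 3 (0.0810) or vehicle 4 (0.0574). Nampt, the rate-limiting enzyme of NAD salvage, fell by 0.45 and Kcnip2, a potassium channel subunit gene, by 0.85 (limma adjusted p = 0.0164 and 0.0129). Nampt did not pass without vehicle 2 (0.0647) or without the 3 samples rich in atrial markers (0.155), and with the erythroid score as a covariate neither passed (0.179 and 0.0778).

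The most abundant genes of the list that did not pass were Alas1, Usp2, Pdk4 and Cirbp. Alas1, which starts heme synthesis, averaged 13735 ± 3399 normalized counts in oxaliplatin samples and 11477 ± 1909 in vehicle samples, and it passed as higher with the atrial score as a covariate (limma adjusted p = 0.0208). Usp2, a ubiquitin protease gene that cycles in many tissues, averaged 6472 ± 891 in oxaliplatin samples and 7477 ± 927 in vehicle samples. Pdk4, a pyruvate dehydrogenase kinase gene, averaged 4101 ± 1441 in oxaliplatin samples and 2638 ± 209 in vehicle samples, and it passed as higher without oxaliplatin 1 (limma adjusted p = 0.0340). Cirbp, a cold-inducible RNA-binding protein gene, averaged 3400 ± 1318 in oxaliplatin samples and 3068 ± 569 in vehicle samples.

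Of 3 listed genes that follow glucocorticoids, hormones that time clocks in peripheral tissues, Fkbp5 rose and Sgk1 and Zbtb16 did not pass. Among all genes tested 9.23% passed as higher. The member Per1, which also answers to glucocorticoids, had a log2 fold change of -0.14 (limma adjusted p = 0.809). Fkbp5, a chaperone gene induced by the glucocorticoid receptor, had 724, 445, 494, 872 and 559 normalized counts in oxaliplatin samples 1 to 5, against 105, 191, 141 and 332 in vehicle samples. Its groups did not overlap, where 8.99% of all genes tested had every oxaliplatin sample above every vehicle sample. Fkbp5 rose by 1.77 on the log2 scale (standard error 0.31, limma adjusted p = 0.00465). Sgk1, a kinase gene, averaged 6266 ± 1076 normalized counts in oxaliplatin samples and 3782 ± 1663 in vehicle samples, and Zbtb16, a zinc finger gene, averaged 1748 ± 308 in oxaliplatin samples and 1198 ± 525 in vehicle samples. Their log2 fold changes of 0.87 and 0.65 did not pass (limma adjusted p = 0.128 and 0.173), but Sgk1 did with the atrial score as a covariate (0.0167) and without the 3 samples rich in atrial markers (0.0263). Vehicle 1 had the lowest Sgk1 value, 1415 normalized counts, and without it the log2 fold change was 0.45 for Sgk1 and 0.33 for Zbtb16 (limma adjusted p = 0.103 and 0.295). The part of these genes in the fall of Dbp, Tef and Nr1d2 was not tested.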

How the data were processed

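RNA sequencing of heart tissue was analysed for 5 oxaliplatin and 4 vehicle samples, grouped by title. Per the labels' protocols the library kit was of the SMARTer type. The deposited values are a signal, called normalized gene counts by the authors, for 13795 symbols in each sample. The submitters' processing notes name STAR 2.5.1a, Partek and DESeq2 but not what each did, and no source used here gives the genome build or strand setting. In each sample the low values were spaced by 1 step, but only 73.0% to 75.9% of values came within 0.02 of a whole number of steps, so the test was run on the log scale and not on counts.

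The comparison used limma 3.58.1 under R 4.3.3 (trend and robust moderation, two-sided) on log2(normalized count + 1), over 13788 genes with a mean of at least 10. An adjusted p under 0.05 (Benjamini-Hochberg, all genes) passed. Fold changes on this scale understate the change of low genes. The steps were tested on simulated data. The members, lists, alternatives and naming rule were chosen with earlier results of these data known. The rule took all members, up to 4 passed (smallest p) and 4 other genes (highest level) per list, genes overlapping Nr1d1, genes with profiles closest to Dbp and Arntl, and 5 cue genes. Promoters are RefSeq's on GRCm38.p6, and exon lengths and overlaps are those of GENCODE M21 on GRCm38. Of the other loop genes, 1 is not reported here by name.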

Additional observations from a re-analysis of the deposited data

Results flagged for a closer look

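The log2 ratio of Arntl to Nr1d1 was -5.73 in vehicle 1, apart from the other vehicle samples, of which the nearest stood at -7.24. The gap took 0.838 of the range of the 4 samples, just past Dixon's 95% limit. Of 22 groups of values examined this way, over the members and the ratio, 1 stood apart, and chance alone sets apart about 1 in 20 groups.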

How the results depend on the processing

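Of 1966 genes that passed, 64.7% were higher, against 54.4% after quantile normalization and 79.0% with nuclear totals set equal. The numbers of members lower (3), members higher (0), other loop genes higher (1) and lower (0) and clock-controlled genes higher (6) and lower (2) kept close to these with other pseudocounts or filters. With nuclear totals set equal 1 member was lower and 2 loop genes higher, and after quantile normalization 2 loop genes were higher. Without trend and robust moderation 1 member was lower. With array weights 3541 genes passed and 2 loop genes were lower. At a threshold of 0.1 there were 2 loop genes higher and 1 lower, and at 0.01 there were 757 genes, 0 members lower, 0 loop genes higher and 0 clock-controlled genes lower. With the atrial score as a covariate 5 members were lower, 2 loop genes higher and 1 lower. The erythroid score nearly followed the 2 groups. With that score 1063 genes passed, with 1 member lower, 0 loop genes higher and 1 lower, and 0 clock-controlled genes lower. Without the 3 samples rich in atrial markers 1 member was higher, Arntl, and 5 lower, with 0 loop genes higher and 1 lower. Leaving out each sample gave 1110 to 2378 genes, 1 to 5 members lower, 0 to 2 loop genes higher, 0 to 2 lower, 4 to 7 clock-controlled genes higher and 1 to 3 lower. The log2 fold change of Per1 was 0.0695 with array weights and ran from -0.35 to 0.21 when each sample was left out. That of Ciart was 0.0165 with nuclear totals set equal and 0.0270 with the atrial score, and ran from -0.26 to 0.0636 when each sample was left out. The cause of these changes was not tested. In all, 195 of the 239 alternative values of members kept their direction and side of the threshold, most of them for members that had not passed. Among the 3 that passed, the call was kept 23 times and lost 1 time for Dbp. It was kept 10 times and lost 14 times for Tef, and kept 14 times and lost 10 times for Nr1d2. These tallies include the exact permutation test given below, taken at an unadjusted p under 0.05. At the threshold of 0.1 a gene that had passed could not lose its call.

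The exact permutation test over the 9 samples, two-sided and unadjusted, gave p = 0.0238 for Dbp and Nr1d2, 0.0397 for Tef and Per3, 0.0556 for Hlf, 0.119 for Nr1d1 and 0.230 for Arntl, and the smallest p it can give is 0.0159. With the replicate number as a block (replicate block) 2 members were lower, 0 loop genes higher and 3 clock-controlled genes higher, without the calls of Tef (limma adjusted p = 0.0976), Csnk1d (0.0784), Cdkn1a (0.0713), Tsc22d3 (0.0553) and Tspan4 (0.0689). The labels do not say that the numbers pair the samples. Deviations of same-numbered samples from their group means correlated across genes with r from -0.273 to 0.25. Of the 4 vehicle samples 1 correlated best with its own number. With 4 pairs these values cannot decide whether samples of the same number share a batch.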

Other observations

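The heat shock gene Hsph1, which follows body temperature, another cue of peripheral clocks, had 233, 775, 288, 239.8 and 234 normalized counts in oxaliplatin samples 1 to 5, against 507, 488, 969 and 875 in vehicle samples. Its log2 fold change of -1.12 did not pass (limma adjusted p = 0.0814), and without oxaliplatin 2 it was -1.45 and passed (adjusted p = 6.34e-04), as it did without the 3 samples rich in atrial markers (-1.57, adjusted p = 0.00101). Hspa1a, another heat shock gene, averaged 48.0 ± 22.5 normalized counts in oxaliplatin samples and 89.9 ± 52.2 in vehicle samples (log2 fold change -0.80, limma adjusted p = 0.269). Fos, an early response gene, ranged from 137 to 1466 normalized counts in oxaliplatin samples and from 31.1 to 1588 in vehicle samples (log2 fold change -0.37, limma adjusted p = 0.888).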
